A study of Arabidopsis thaliana with 6 samples.

Results

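A group of 97 probe sets, of the 22746 on the ATH1 array that are not controls, read at least 1.5-fold higher in high than in low differentiating medium on day 5 and again on day 9. The members were chosen by these same values: intensities under a floor of 24.7 were raised to it, and both ratios of high over low medium had to reach 1.5. In all, 104 probe sets met both folds, and 7 of them, whose genes the rule leaves out by name, are not members. With 1 array per condition, no value below has a replicate check, an error or a p-value, and every count is a count past a stated fold. The differences between media that chose the group are therefore a description. The day 0 and day 2 arrays played no part in the choice. Low medium was not sampled at day 2, so comparing these 2 arrays does not set the media against each other.

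The series compared 6 cultures of Arabidopsis thaliana (ecotype Ler) by 1-colour ATH1 arrays. All of them began as leaf callus, raised for 2 weeks in the dark at 22 °C from leaves of seedlings 14 to 17 days old, on medium with 2.0% glucose, 0.5 mg/l 2,4-D and 0.05 mg/l kinetin; callus sampled then is the day 0 array. The other cultures were moved to shaken liquid medium (105 rpm) with 0.2% sucrose and 4% mannitol. In the high medium, sampled at days 2, 5 and 9, the hormones were auxins at 0.2 mg/l (2,4-D, NAA and IAA) and the cytokinin benzyladenine at 1 mg/l. In the low medium, sampled at days 5 and 9, they were kinetin at 1.5 µg/l and 2,4-D at 0.5 mg/l. The media therefore differ in the kinds and amounts of both hormones at once, and a growth field that repeats the high recipe for every sample was set aside in favour of each sample's own name and treatment text.

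Auxin and cytokinin are the plant hormones whose balance sets whether cultured plant cells keep dividing as callus or take up other fates. Cultures kept on a synthetic auxin such as 2,4-D tend to stay as callus, while a raised share of cytokinin favours greening, shoots or vascular cells. Genes known to respond to such a shift include those of hormone response, of the cell wall and of the secreted enzymes that act there, such as class III peroxidases, which use hydrogen peroxide to cross-link or loosen wall polymers. In bulk cultures, fewer cells of a type and less RNA per cell cannot be told apart.

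Of the 97 members, 39 are paired with exactly 1 gene, 4 with several genes and 54 (55.7%) are unnamed here. Over the whole array 38.4% of probe sets are unnamed, so the group holds a larger share of probe sets without a gene name. The 7 probe sets left out by name, each paired with 1 gene, are not in the group's share. The 39 single-gene members are 39 different genes, all found in RefSeq's gene table (TAIR10.1), which names most of them only by locus. Families given below for such loci are background knowledge. Of these genes, 12 lie on chromosome 1, 9 on chromosome 2, 8 on chromosome 3, 3 on chromosome 4 and 7 on chromosome 5. The genes measured under a name on these chromosomes numbered 3411, 2169, 2720, 1935 and 2981, in that order. By RefSeq gene order, no pair of these 39 genes lay within 5 steps of each other in the order of protein-coding genes. Unnamed members and those paired with several genes were not placed, so pairs that involve them were not looked for.

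At day 5 the ratio of high over low medium ran from 0.59 to 3.55 on the log2 scale over the members, with a median fold of 2.00. At day 9 it ran from 0.58 to 2.80, with a median fold of 1.72. Among all probe sets with a ratio, the share past 1.5-fold towards high medium was 3.86% at day 5 and 2.26% at day 9; both folds together were met by 0.701%, and the reverse on both days by 0.485%. These shares are the background to a rule that used the same arrays, so nothing is read from them. At least 2-fold on both days was reached by 19 members. A further 28 reached it on day 5 alone, 10 on day 9 alone, and 40 on neither day. The ratio was larger at day 5 in 66 members and larger at day 9 in 31.

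**Figure D1:**
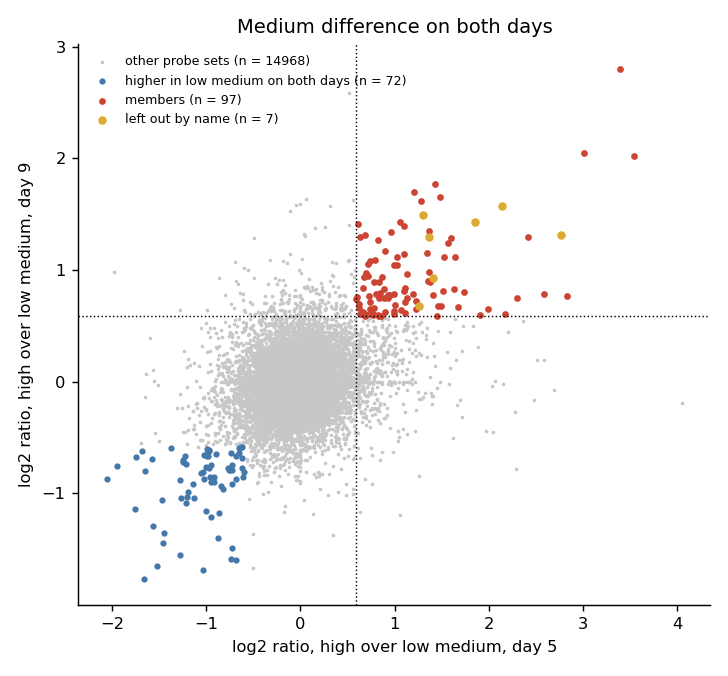
Log2 ratio of intensity in high over low medium at day 5 (horizontal) against day 9 (vertical) for each probe set with a ratio on either day, 1 array per condition; dotted lines mark 1.5-fold. The 97 members fill the upper right corner with the 7 probe sets left out by name, and most members lie near the limit while 3 stand at log2 ratios above 2 on both days.

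The members were of moderate brightness. In high medium their median intensity was 109 at day 5 and 88.1 at day 9, against 52.0 and 47.5 in low medium, where the medians of all probe sets ran from 40.0 to 41.1 on these 4 arrays. All 4 arrays of the rule were above the floor for 77 members, 3 for 15 and 2 for 5. The low medium value lay at or under the floor in 11 members at day 5 and in 14 at day 9, and their ratios are lower bounds, written as at least. In 93 of the 97 members the lower of the high medium values was above the higher of the low medium values. Closest to the limit on the inside were AT5G39670, with ratios of 1.81 and 1.50, and the unnamed probe set 248393_at, with 1.61 and 1.50. Just outside lay 246036_at, with 1.49 and 2.00, and 250770_at, with 1.77 and 1.49.

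Among the members, the largest differences belong to probe sets that have no gene name here. From here on, 3 values for high medium stand for days 2, 5 and 9 in that order, and a pair of values for low medium stands for days 5 and 9, as does a pair of ratios. The probe set 254805_at read 76.1 in callus, then 73.1, 351 and 172 in high medium, and 33.3 and 17.2 in low medium, which is 10.5-fold at day 5 and at least 6.94-fold at day 9. It was near its callus level at day 2, and both later high medium values lay above every other array. The probe set 254818_at was likewise highest at day 5, with 57.5 in callus, 66.2, 387 and 103 in high medium, and 48.0 and 24.9 in low medium. The probe set 265561_s_at read 320 in callus, 1008, 668 and 156 in high medium, and 57.2 and 38.2 in low medium. It was highest at day 2, and at day 9 in high medium it was already below callus. The probe set 253191_at, with 186 in callus, read 659, 363 and 220 in high and 130 and 69.7 in low medium, and 257896_at, with 87.6 in callus, read 216, 150 and 84.2 in high and 55.5 and 24.5 in low medium. Some of the 7 probe sets left out by name, each paired with 1 gene, were also at least 2-fold higher on both days and are not counted here. Of the 19 members at least 2-fold higher on both days, 14 are unnamed, 1 is paired with several genes and 4 are single genes.

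These 4 genes lead the named members. AT5G59845, of the gibberellin-regulated GASA family of small cysteine-rich secreted peptides, read 40.9 in callus, 88.7, 134 and 80.9 in high medium, and 52.0 and 31.7 in low medium. It was 2.58-fold and 2.55-fold higher in high medium, the most even pair of ratios among the 4. AT3G54040, of the PAR1 protein family, read 118 in callus, 247, 205 and 137 in high medium, and 65.7 and 63.1 in low medium. Its high medium values all lay above callus and its low medium values below it. AT3G19370, which encodes a filament-like protein, read 74.9 in callus, 113, 90.0 and 95.7 in high medium, and 42.0 and 43.4 in low medium, ratios of 2.14 and 2.21. AT1G75280, which encodes an isoflavone reductase-like enzyme of a family that acts on phenylpropanoids, read 462 in callus, 733, 337 and 335 in high medium, and 158 and 128 in low medium. It was above callus at day 2 only, so the ratios of 2.14 and 2.62 between media set a high medium level under that of callus against a low medium level lower still.

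**Figure D2:**
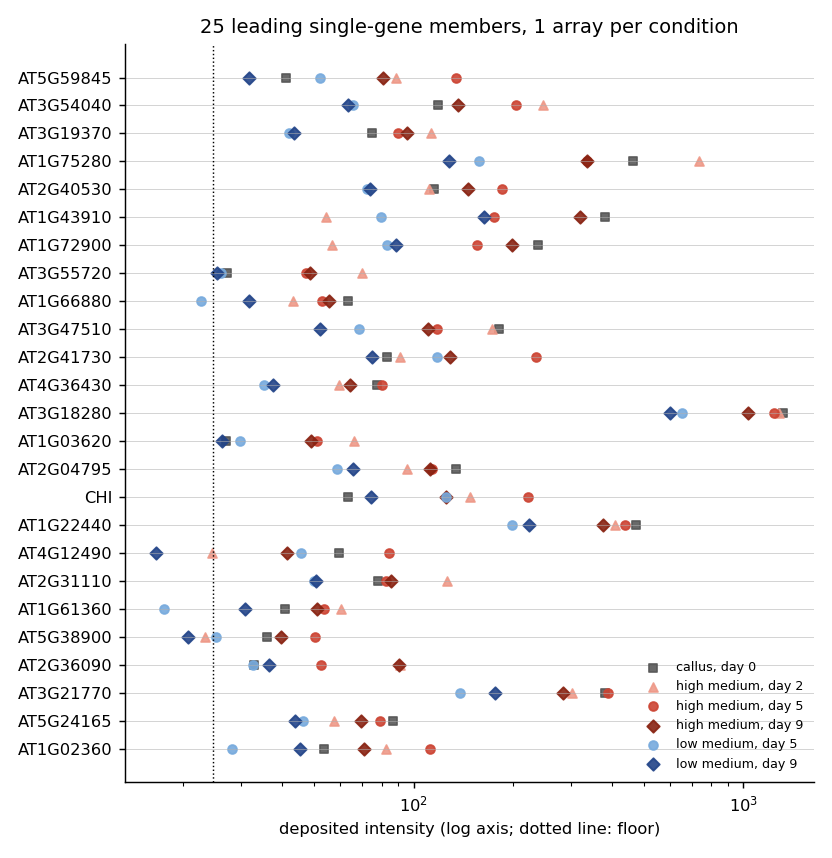
Deposited intensity (log axis) on each of the 6 arrays for the 25 single-gene members with the highest smaller ratio between media, ordered from the largest at the top; the dotted line is the floor of 24.7. Low medium values (blue) lie to the left of the day 5 and day 9 high medium values of the same day, while callus (grey) and day 2 (light red) change place from gene to gene.

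Among secreted wall enzymes, 2 class III peroxidase genes are members beside the pair that was left out by name. Both were placed in the family after their values were seen. By words in the RefSeq names, 10 peroxidase and laccase genes were measured and 0 were members. Those names did not place these 2 genes, so the share of the whole family is not known here. AT3G21770 read 382 in callus, 302, 389 and 284 in high medium, and 138 and 177 in low medium, ratios of 2.82 and 1.60. AT4G36430 read 77.4 in callus, 59.6, 80.5 and 64.3 in high medium, and 35.1 and 37.4 in low medium, ratios of 2.29 and 1.72. For both genes every high medium value lay within 1.5-fold of its callus value, and each low medium value was at least 2-fold below callus. TRICHOME BIREFRINGENCE-LIKE 40 (AT2G31110), of a family of enzymes that acetylate wall polysaccharides, read 78.3 in callus, 127, 82.6 and 85.7 in high medium, and 50.0 and 50.5 in low medium. A second probe set of this gene, brighter on every array, gave ratios between media of 1.29 at day 5 and 1.75 at day 9, so the gene is a member by 1 of its 2 probe sets.

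The brightest single-gene member encodes a protein of the lipid-transfer family, small secreted proteins that bind lipids. AT3G18280 read 1322 in callus, 1287, 1238 and 1032 in high medium, and 650 and 601 in low medium. Its values in callus and high medium were all above both low medium values, with ratios between media of 1.90 and 1.72. A second gene of the family, AT4G12490, read 59.4 in callus, 24.4, 84.3 and 41.4 in high medium, and 45.7 and 16.6 in low medium. It lay under the floor at day 2, whereas AT3G18280 was within 1.5-fold of callus there.

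Several members belong to families known from defence. Apart from CHI, they were placed there after their values were seen. By words in the RefSeq names, 10 defence and stress genes were measured and 1, CHI, was a member. Those names did not place the others, so the share of the whole families is not known here. CHI (AT2G43570), annotated as a chitinase, an enzyme that cuts the chitin of fungal walls, read 63.4 in callus, 149, 223 and 125 in high medium, and 126 and 74.3 in low medium, ratios of 1.78 and 1.69. AT1G02360, also of a chitinase family, read 53.6 in callus, 82.5, 112 and 70.9 in high medium, and 28.2 and 45.2 in low medium, ratios of 3.98 and 1.57. For CHI all liquid cultures lay above callus, whereas for AT1G02360 the low medium values lay below it. AT5G40020, of the thaumatin family of pathogenesis-related proteins, read 121 in callus, 229, 174 and 140 in high medium, and 113 and 56.9 in low medium. AT5G62150, with a LysM domain of the kind that binds chitin-like sugars, had ratios of 1.99 and 1.52. AT1G72900, with the TIR domain of plant immune receptors, read 239 in callus, 56.5, 155 and 199 in high medium, and 83.2 and 88.5 in low medium. It was 4.23-fold lower at day 2 than in callus and then read higher at each later time in high medium.

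A few members have a role in regulation. STZ (ZAT10), a zinc finger repressor of transcription known from salt and cold responses, read 61.1 in callus, 49.1, 79.2 and 75.6 in high medium, and 46.4 and 49.6 in low medium, ratios of 1.71 and 1.52. AT1G66880, which encodes a protein kinase, had ratios of at least 2.14 and of 1.75, and AT1G61360, an S-locus lectin receptor kinase gene, of at least 2.16 and of 1.64. In both kinase genes the low medium value at day 5 lay under the floor. AT5G39670, which encodes a calcium-binding EF-hand protein, read 56.9 in callus, 42.8, 68.3 and 70.4 in high medium, and 37.8 and 46.9 in low medium. The F-box gene AT2G36090, of a family that selects proteins for breakdown, read 32.9 in callus, 91.3, 52.5 and 90.6 in high medium, and 32.7 and 36.5 in low medium, so that only the high medium values stood away from callus. The RING-type genes AT3G43430 and AT1G08050, from another class of that pathway, had ratios of 1.50 and 1.68, and of 1.77 and 1.51.

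A few other members are enzymes or carriers. AT1G22440, of the zinc-binding alcohol dehydrogenase family, read 473 in callus, 408, 438 and 376 in high medium, and 200 and 224 in low medium. It followed the course of the peroxidase genes, level in callus and high medium and lower in low medium. AT4G29270, of an acid phosphatase family, read 159 in callus, 167, 185 and 176 in high medium, and 115 and 116 in low medium. AT5G38900, of the thioredoxin superfamily, had ratios of 2.00 and at least 1.61. AT2G04050, of the MATE family of efflux carriers, lay under the floor in low medium on both days, with ratios of at least 1.62 and 1.51. AT3G60420, of the phosphoglycerate mutase family, read 321 in callus, 47.0, 67.7 and 69.4 in high medium, and 14.2 and 46.1 in low medium. Its values in all liquid cultures were more than 2-fold below callus, and its ratios between media were at least 2.74 and 1.51. A second probe set of this gene read 2.5 or less on every array, under the floor throughout.

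Among genes with no role given here, AT2G47950 read 106 in callus, 353, 284 and 162 in high medium, and 185 and 99.6 in low medium. AT2G41730 read 83.1 in callus, 91.3, 235 and 129 in high medium, and 118 and 74.9 in low medium. Both read lower at day 9 than at day 5 in each medium, with ratios between media of 1.54 and 1.62, and of 2.00 and 1.72. AT2G40530 read 116 in callus, 111, 186 and 146 in high medium, and 72.4 and 73.9 in low medium, ratios of 2.57 and 1.98. AT2G18690 read 187 in callus, 154, 296 and 205 in high medium, and 142 and 131 in low medium, and was highest at day 5. The ratios of AT1G67050 were 1.86 and 1.54, those of AT2G04795 1.93 and 1.71, and those of AT5G24165 1.72 and 1.58. AT3G47510 read 182 in callus, 173, 118 and 111 in high medium, and 68.4 and 52.1 in low medium. The AAA-type ATPase gene AT1G43910 read 380 in callus, 54.2, 175 and 319 in high medium, and 79.9 and 163 in low medium. In high medium it read higher at each later time, and its low medium values also read higher at day 9 than at day 5.

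The 4 members paired with several genes had courses of their own. The probe set 267053_s_at read 445 in callus, 459, 387 and 429 in high medium, and 116 and 246 in low medium, level in the first 4 arrays and lower in low medium. The probe set 263063_s_at read 83.5 in callus, 84.4, 70.6 and 58.3 in high medium, and 13.7 and 33.2 in low medium. Their ratios were 3.33 and 1.74, and at least 2.86 and 1.76. The probe set 256376_s_at was above the floor only in high medium at day 5 (62.7) and day 9 (55.0). The probe set 267607_s_at read 32.7 in callus, 49.3, 111 and 154 in high medium, and 72.8 and 57.9 in low medium, above callus in every liquid culture.

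The comparison of day 2 in high medium with callus rests on 2 arrays that did not choose the members. Of the 96 members with a ratio, 42 (43.8%) were at least 1.5-fold higher at day 2 than in callus, where 7.68% of all probe sets with a ratio were. A further 17 (17.7%) were at least 1.5-fold lower, where 9.83% of all probe sets were. The median log2 ratio was 0.26 over the members and -0.04 over all probe sets. Among the 72 probe sets with the opposite difference between media, higher in low medium on both days, 68 had a ratio. Of these, 2 (2.94%) were at least 1.5-fold higher at day 2 and 36 (52.9%) at least 1.5-fold lower, with a median log2 ratio of -0.62. With 1 array each, these shares describe the 2 cultures and were not tested. Low medium was not sampled at day 2, and the move from callus also changed the sugar, added mannitol and brought shaken liquid culture. Changes due to the move and those due to the hormones cannot be told apart here.

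**Figure D3:**
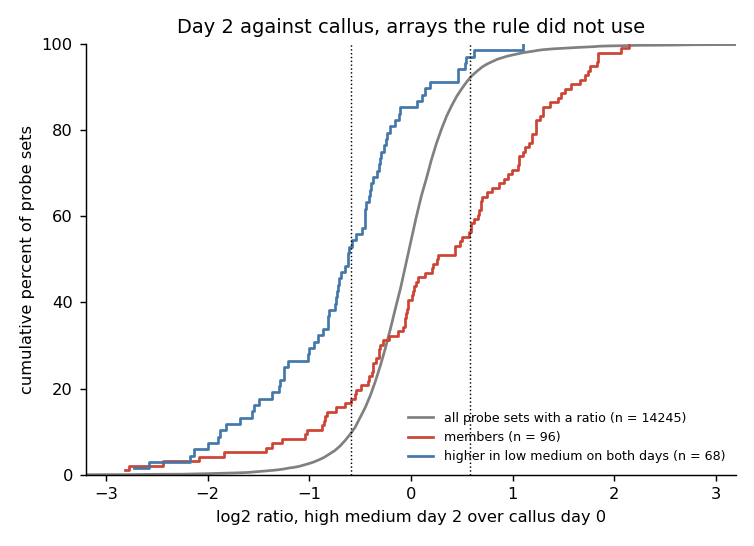
Cumulative percent of probe sets by log2 ratio of high medium at day 2 over callus at day 0, for the 96 members with a ratio, the 68 probe sets higher in low medium and all 14245 probe sets with a ratio; dotted lines mark 1.5-fold either way. The member curve lies to the right of the curve of all probe sets above a log2 ratio of about 0 and to its left on the far negative side, so both tails are longer.

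The sign of the members' median at day 2 depended on which members were counted. Over the 39 single-gene members it was -0.04, close to the -0.03 of all single-gene probe sets. Still, 16 (41.0%) of these members were at least 1.5-fold higher and 7 (17.9%) lower, against 7.56% and 8.77% of all single-gene probe sets with a ratio. Over the 54 unnamed members the median was 0.46, with 25 (46.3%) higher and 10 (18.5%) lower. Among all unnamed probe sets with a ratio it was -0.06, with 7.84% higher and 11.4% lower. A group chosen on day 9 alone, without either day 5 array, held 311 probe sets. Of the 301 with a ratio, 28.9% were at least 1.5-fold higher at day 2, against 7.68% of all probe sets, with a median of 0.047.

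The 42 members that were higher at day 2 had median intensities of 69.3 in callus and 144 at day 2, then 112 and 86.7 in high medium at days 5 and 9, against 54.9 and 46.8 in low medium. In 35 of them the high medium value was lower at day 9 than at day 5. The same held in 31 of the 37 members within 1.5-fold of callus at day 2, and in 75 of all 97. It held in 8 of the 17 members lower at day 2, and in 47.0% of all probe sets with a ratio. The largest ratio was that of the unnamed probe set 250322_at, 4.42-fold, with 33.9 in callus, 150, 95.6 and 58.5 in high medium, and 32.2 and 24.8 in low medium. The single gene with the largest ratio was AT2G47950, at 3.34-fold, followed by the F-box gene AT2G36090 at 2.78-fold. AT3G55720, of a family of unknown function, read 27.1 in callus, 70.0, 47.3 and 48.6 in high medium, and 26.0 and 25.4 in low medium. AT1G03620, with an ELMO domain known in animals from the control of small GTPases, read 27.0 in callus, 66.2, 50.9 and 48.8 in high medium, and 29.7 and 26.3 in low medium. AT1G16080 read 48.1 in callus, 116, 108 and 78.5 in high medium, and 54.2 and 50.7 in low medium. In these last 3 genes callus and low medium read alike, and the high medium values stood above both.

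The 17 members that were lower at day 2 had median intensities of 144 in callus and 56.5 at day 2, then 84.3 and 89.9 in high medium and 45.7 and 55.4 in low medium. AT1G43910 was 7.02-fold lower at day 2 than in callus, AT3G60420 6.82-fold and AT1G72900 4.23-fold. AT4G12490 was at least 2.40-fold lower and AT1G08050 1.83-fold lower. Among unnamed probe sets, 266070_at read 134 in callus and lay under the floor at day 2, and 267083_at read 515 in callus, 145, 400 and 293 in high medium, and 89.1 and 192 in low medium. The other 37 members with a ratio lay within 1.5-fold of callus at day 2.

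**Figure D4:**
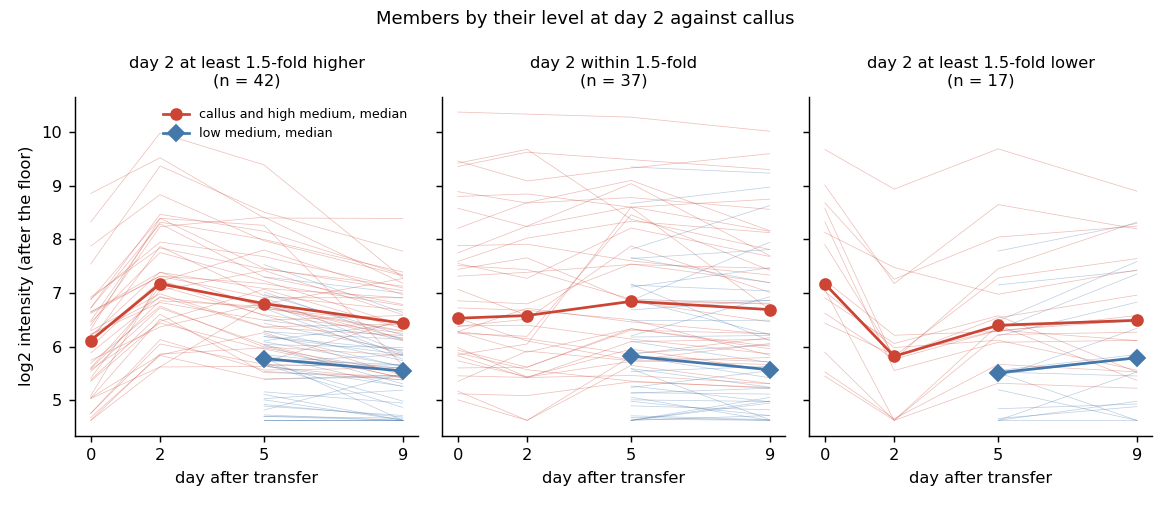
Log2 intensity after the floor against day for members grouped by their day 2 value over callus (at least 1.5-fold higher, within 1.5-fold, at least 1.5-fold lower; 42, 37 and 17 members); thin lines are members, thick lines medians, red for callus and high medium, blue for low medium. The red median peaks at day 2 in the first panel, stays level in the second and dips in the third, and the blue median lies below the red one at days 5 and 9 in each.

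The members were also set against callus at days 5 and 9. These comparisons share the callus array, and each holds 1 array that chose the members, so nothing is read from how they go together. In high medium, 36 members (37.1%) were at least 1.5-fold above callus at day 5, where 9.67% of all probe sets were, and 13 (13.4%) below it, where 12.9% were. At day 9 the counts were 21 (21.6%) above, against 8.06%, and 15 (15.5%) below, against 10.5%. In low medium, 51 of 95 members with a ratio (53.7%) were at least 1.5-fold below callus at day 5, where 12.5% of all probe sets were, and 4 were above, where 10.4% were. At day 9, 63 of 94 (67.0%) were below, against 9.19%, and 1 was above, against 7.24%.

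The patterns over both days also use the 4 arrays that chose the members, so their counts are a description, given beside the shares over all 15144 probe sets above the floor on callus or 1 of those arrays. In 38 members (39.2%, against 2.38% of all) low medium was at least 1.5-fold below callus while high medium was not past that fold on both days in either direction. Of these, 16 are single genes, among them AT3G18280, AT3G21770, AT4G36430, AT1G22440, AT2G40530 and AT1G72900. The reverse course, high medium above callus on both days and low medium past the fold on both days in neither direction, was found in 19 members (19.6%, against 1.77%), with 9 single genes: AT5G59845, CHI, AT3G55720, AT1G03620, AT1G16080, AT2G36090, AT2G41730, AT2G47950 and AT5G53030. In 8 members (8.25%, against 4.52%) both media were below callus, AT3G60420 and AT3G47510 among them, and in 1 (1.03%, against 3.52%) both were above. In 30 members (30.9%, against 83.6%) neither medium was past the fold on both days. The probe set 254805_at was above callus in high medium and below it in low medium on both days, the 1 case among all those probe sets (0.0066%). The highest of the 6 arrays was callus in 23 members (23.7%), where it was in 29.4% of all probe sets above the floor somewhere. It was day 2 of high medium in 41 (42.3%, against 15.8% of all), day 5 in 30 (30.9%, against 13.6%) and day 9 in 3 (3.09%, against 10.9%). The rule keeps the low medium arrays from being highest in a member, so these shares are not set by the data alone.

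In high medium, 75 of the 97 members (77.3%) read lower at day 9 than at day 5, where 47.0% of all probe sets with a ratio did, with a median log2 ratio of day 9 over day 5 of -0.26 over the members. In low medium 55 of 92 members with a ratio (59.8%) did, against 49.1% of all, with a median of -0.07. These arrays chose the members by a rule that asks for a high value in high medium on both days. How the rule bears on this count was not tested.

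The lists of cytokinin and auxin response genes could be followed only in part. Of the 17 listed cytokinin response genes 4 were measured under a name, and 0 were members. Of the 4, 2 lay under the floor on all 6 arrays. UGT76C2 read 265 in callus, 212, 143 and 165 in high medium, and 104 and 234 in low medium. Its ratios between media were 1.38 at day 5 and 0.71 at day 9. ARR15, a response regulator gene that cytokinin induces, read 16.3 in callus, 65.0, 37.8 and 22.0 in high medium, and 21.4 and 14.3 in low medium. Its ratio between media was at least 1.53 at day 5, and its day 9 values lay under the floor in both media. Towards high medium 1 of the 4 cytokinin response genes passed 1.5-fold at day 5, where 3.86% of all probe sets did, and 0 at day 9. Towards low medium 0 passed it on either day. Of 13 listed auxin response genes 8 were measured and 0 were members. None of the 8 passed 1.5-fold towards high medium. Towards low medium 5 passed it at day 5, where 3.74% of all probe sets did, and 2 at day 9, where 1.94% did. With 54 members unnamed, these counts cover only genes that have a name here. Of 24 xylem markers 4 were measured and 0 were members. Their summed intensity, which includes values under the floor, was 193 in callus, 356, 193 and 173 in high medium, and 136 and 110 in low medium. Towards high medium 1 of the 4 passed 1.5-fold at day 5 and 0 at day 9, where 3.86% and 2.26% of all probe sets with a ratio did. C3H14 (AT1G66810) came nearest of the 4, at 50.1 in high and 29.3 in low medium for day 5, then 36.5 and 26.8 for day 9. The single measured markers of phloem and of light harvesting each passed 1.5-fold on 1 day only, no marker of dividing cells was measured under a name, and those of epidermis, root hair and shoot meristem lay at or under the floor on all 6 arrays. The part of other cell types in the members' differences was not tested.

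The arrays had been brought to a common level before deposit, with trimmed means from 99.2 to 99.4. Scan background was 105 on the day 5 array of low medium and 69.0 to 82.0 on the others. Over 18 probe sets for spiked-in control transcripts, the median ratio of high over low medium was 1.53 at day 5 and 1.18 at day 9, so the controls moved the same way as the members, while the median log2 ratio of all probe sets with a ratio was -0.02 and -0.01. The part of background and of the spiked-in controls in the members' differences was not tested.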

How the data were processed

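Each array came as linear intensities per probe set, deposited at a level that the authors had already made common; which software made them is not given in the sources. Control probe sets (64 of 22810) were set aside. A floor of 24.7, from the arrays' 40th percentiles (their median), was applied and log2 ratios were taken with Python 3.11.15 and pandas 2.3.3. Where 1 of the arrays lay at the floor the ratio is a bound, and probe sets with both arrays at the floor have none. No test was run, since each of the 6 conditions has 1 array, and the number of arrays limits the precision. Named genes were the 25 single-gene members with the largest smaller ratio, members of fixed lists, the 5 highest and 5 lowest at day 2 over callus, the edge of the rule, the 5 leading unnamed probe sets, and up to 4 per keyword class. Other members were named by family after their values were seen. Words in the RefSeq names put only STZ and CHI in a class. The members and lists were chosen with earlier results of these data known. Promoter motifs had been planned and were not analysed here. Probe sets were matched to genes through the platform annotation and RefSeq (TAIR10.1).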

Additional observations from a re-analysis of the deposited data

Results flagged for a closer look

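The unnamed probe set 254805_at was the member whose media lay on opposite sides of callus by at least 1.5-fold on both days. Its log2 ratio over callus in high medium was 2.21 at day 5 and 1.17 at day 9, and in low medium it was -1.19 and at most -1.62. The difference was not tested, since each condition has 1 array, and it includes the arrays that chose the members.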

How the results depend on the processing

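No paired analysis was possible because each condition has 1 array. The number of members depended on the floor, with 268 at the 20th percentile (7.7) and 42 at the 60th (65.1), and on the fold, with 19 at 2-fold. It was 38 when only the brightest probe set of each single gene was kept, 550 with day 5 alone and 311 with day 9 alone. Scaling moved it little, to 91 with equal medians and 94 with quantile normalization, and 87 and 92 of the 97 members were shared. The share higher at day 2 than in callus was 61.1% for members at 2-fold and 28.9% with day 9 alone; under 6 other settings it ran from 34.5% to 48.9%. The median log2 ratio at day 2 was 0.20 with the lower floor, 0.55 with equal medians, 0.43 with quantile normalization, 0.81 at 2-fold, 0.047 with day 9 alone and 0.44 for members above the floor on all 4 arrays, and it turned to -0.047 over single genes; the cause was not tested. The day 9 setting for day 2 and all settings for the later comparisons with callus were added after seeing the data. At 2-fold, 57.9% of members at day 5 and 31.6% at day 9 were above callus in high medium, and 66.7% and 88.9% below it in low medium. With equal medians the day 5 share in high medium was 49.5%, and with the lower floor the day 9 share was 31.7%. Of the 44 single-gene and leading unnamed members, 22 met the rule with the higher floor and 42 with quantile normalization. Dim members lie close to the floor, and signal over background limits their ratios.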
